A study of Homo sapiens with 18 samples.

Results

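The 9 genes described here are tumor suppressors and oncogenic regulators known to be altered in A549 lung carcinoma cells, and close partners of these. They are STK11, KEAP1, NFE2L2, CDKN2A, CDKN2B, MTAP, SMARCA4, SMARCA2 and RB1, of which NFE2L2, SMARCA2 and RB1 were taken as partners. They were chosen by name, and every probeset whose platform annotation gives exactly 1 of these symbols was taken. This gave 36 of 54675 probesets and 9 of the 19775 genes that are named by a single-gene probeset. SMARCA4 had 9 probesets, SMARCA2 7, MTAP 6, STK11, NFE2L2 and CDKN2A 3 each, CDKN2B and RB1 2 each and KEAP1 1. One more probeset that names NFE2L2 together with another gene was left out.

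A549 is an established human line from a lung adenocarcinoma. Its cells were kept at the air-liquid interface on porous inserts for 72 h in the chambers of an exposure platform. There were 9 experiments, each with 1 array from an exposure chamber and 1 from a reference chamber. The reference chamber never held formaldehyde, and the exposure chamber held 0, 0.1 or 0.5 ppm in 3 experiments each, so that there were 6 groups of 3 arrays: reference and exposure chamber of the 0 ppm, the 0.1 ppm and the 0.5 ppm experiments. All groups share the line and its mutations, and no other cell line was measured, so no value here measures the effect of a mutation. The study asked which transcripts follow the chamber and which follow formaldehyde.

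LKB1, the kinase encoded by STK11, activates AMPK and related kinases when energy is short, and A549 carries a truncating mutation of it. KEAP1 holds the transcription factor NRF2, encoded by NFE2L2, in the cytoplasm and directs it to degradation, and the mutated KEAP1 of A549 leaves NRF2 active. CDKN2A encodes the cyclin-dependent kinase inhibitor INK4a and the MDM2 antagonist ARF, CDKN2B encodes the related inhibitor INK4b, and both keep RB1, the retinoblastoma protein, in its growth-suppressing state. MTAP, their neighbor on the short arm of chromosome 9, recycles methylthioadenosine into methionine. The line is known to have lost DNA of this region. SMARCA4 and SMARCA2 are the alternative ATPases of the SWI/SNF chromatin remodeling complex, and A549 carries an inactivating mutation of SMARCA4.

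Values are log2 MAS5 signals, the scanner readings that the authors summarized per probeset and brought to a common trimmed mean of 500 on a linear scale. Over all arrays the median probeset was at a log2 signal of 4.78. Signals of different probesets depend on the probes as well as on the transcript, so percentiles among all probesets are given as a description and no order of transcript amounts is read from them. On 2 reference-chamber arrays the log2 signal of the 5' actin probeset, a control for intact RNA, was 5.90 (replicate 1 of the 0.1 ppm experiments) and 6.85 (replicate 3 of the 0 ppm experiments). The other 16 arrays ranged from 7.75 to 9.70. These are called the low 5' actin arrays below, and differences between the chambers at 0 and 0.1 ppm are also given without them. All 6 epithelial markers lay above the median probeset, with a summed log2 signal of 14.2 to 15.4 per array. Of 9 measured markers of leukocytes, endothelium and fibroblasts 2, CD14 and PECAM1, lay above it, with a sum of 6.99 to 8.77 and PTPRC, CD3D, CDH5, VWF, DCN, LUM and COL3A1 below it. A lower signal in such bulk RNA cannot tell fewer cells from less RNA per cell.

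Of the 9 genes, 7 had a probeset with a mean above the median probeset, and CDKN2A and CDKN2B did not. The brightest probesets of SMARCA2, STK11, RB1 and NFE2L2 had mean log2 signals of 11.39, 11.14, 11.04 and 11.01, at percentiles 92.5, 91.4, 90.9 and 90.7 of all probesets. MTAP followed with 10.43, KEAP1 with 10.14 and SMARCA4 with 6.77, at percentiles 87.8, 86.3 and 64.5. At least 1 probeset each of STK11, KEAP1 and SMARCA4, which are truncated or mutated in A549, thus lay above the median. For STK11 this was 231017_at alone, and whether it read STK11 RNA was not tested. The other STK11 probesets, 41657_at and 204292_x_at, had means of 3.66 and 3.51, below the median. The brightest probeset of CDKN2B was at 2.73 (SD 0.911, n = 18) and that of CDKN2A at 2.37 (SD 1.57), at percentiles 32.7 and 28.8. In all, 15 of the 36 probesets lay above the median probeset, and 16 stayed below a log2 signal of 5 on every array.

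**Figure D1:**
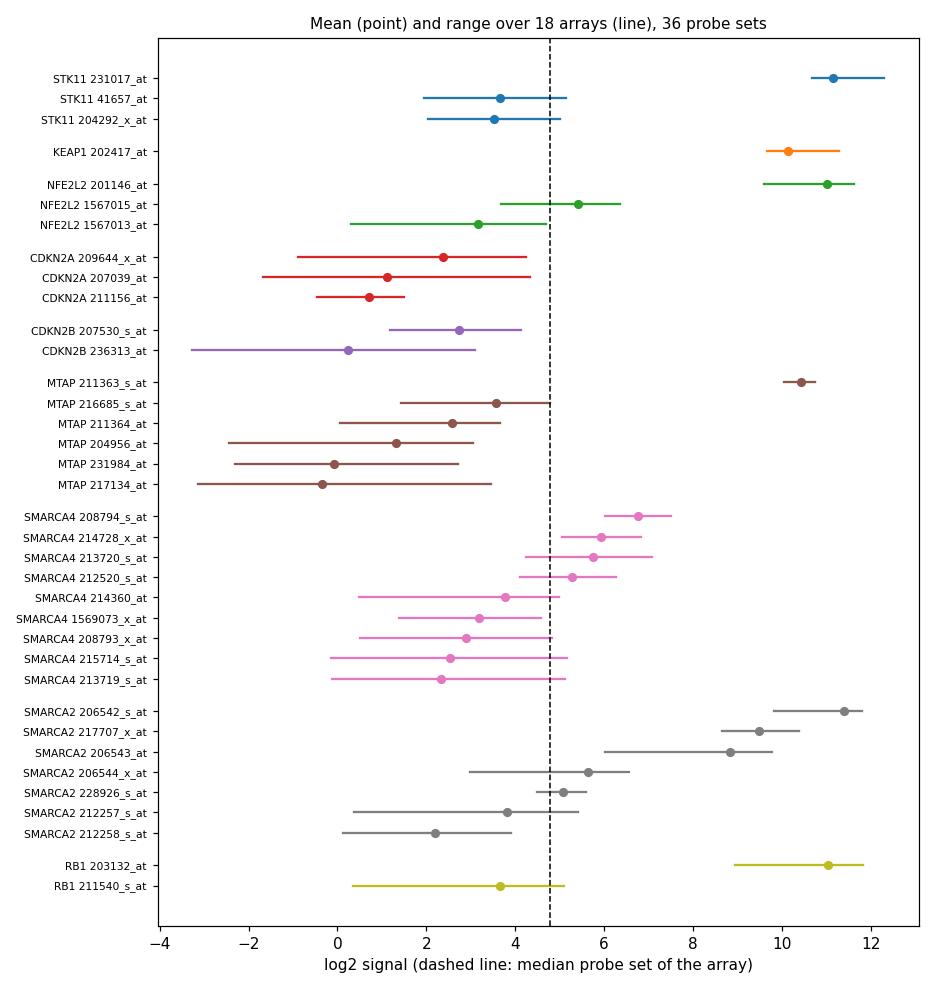
Log2 signal (horizontal axis) of each of the 36 probesets (rows, colored by gene): points are means over 18 arrays, lines run from the lowest to the highest array, and the dashed line marks the median probeset at 4.78. CDKN2A and CDKN2B have no mean above the dashed line, MTAP has 1 of 6, and STK11, NFE2L2, SMARCA2 and RB1 each have probesets on both sides of it.

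Probesets of 1 gene often disagreed. For STK11, 231017_at read 10.67 to 12.29, while 41657_at and 204292_x_at had means of 3.66 and 3.51. For RB1, 203132_at had a mean of 11.04 and 211540_s_at one of 3.65. The 3 NFE2L2 probesets had means of 11.01 (201146_at), 5.40 (1567015_at) and 3.17 (1567013_at), and the 7 of SMARCA2 ran from 11.39 down to 2.19. Across the 16 arrays other than the low 5' actin arrays, the pair of RB1 probesets had a correlation of -0.19 and 201146_at and 1567015_at of NFE2L2 one of 0.15. For SMARCA2, the correlation of 206542_s_at with 206543_at was 0.52. These correlations are descriptions over arrays that share an experiment in pairs. No sum or mean over the probesets of a gene was therefore formed, and the brightest one is used to stand for it.

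The 3 genes of the region on chromosome 9 were read in an uneven way. CDKN2A had means of 2.37 (209644_x_at), 1.11 (207039_at) and 0.71 (211156_at), and CDKN2B had 2.73 (207530_s_at) and 0.24 (236313_at). MTAP had 1 bright probeset, 211363_s_at, which stayed between 10.05 and 10.74 on all 18 arrays with an SD of 0.22. The other 5 MTAP probesets had means of 3.56 (216685_s_at), 2.58 (211364_at), 1.32 (204956_at), -0.09 (231984_at) and -0.34 (217134_at). The bright one correlated with these 5 at -0.53 to 0.49 over the 16 arrays. In the platform's naming, the suffix _s_at marks a probeset that can read several transcripts, and whether 211363_s_at read MTAP RNA was not tested.

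Genes on either side were listed in their RefSeq order (GRCh38.p14, used for order only). MLLT3, FOCAD, HACD4, KLHL9 and IFNE, which lie on one side of MTAP, had brightest probesets at 12.32, 10.48, 7.15, 11.49 and 7.19. The interferon genes IFNB1, IFNW1, IFNA5, IFNA2, IFNA8 and IFNA1, which most cells express only after induction, lay between -0.75 and 1.87. From CDKN2A on, CDKN2B-AS1, the antisense RNA of the locus, was at 0.01, DMRTA1 at 2.22 and ELAVL2, a neuronal RNA-binding protein, at 4.37, all below the median probeset, and TUSC1 was at 11.22. Among the genes listed, those from CDKN2A to ELAVL2 thus had no mean above the median. DNA copy number was not analysed here, and a deleted gene and a silent one cannot be told apart from these signals.

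**Figure D2:**
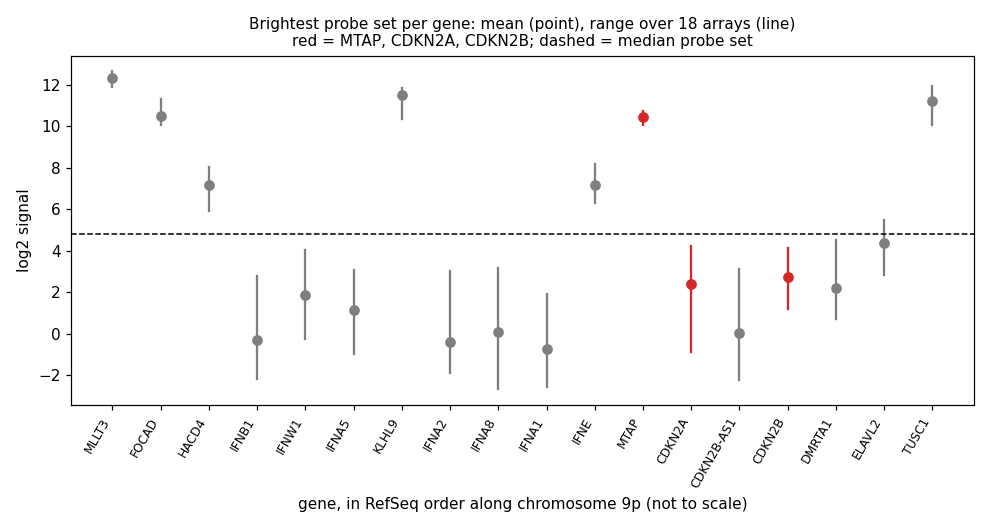
Log2 signal (vertical axis) of the brightest probeset of 18 genes in their RefSeq order along the short arm of chromosome 9 (horizontal axis, not to scale): points are means, lines the range over 18 arrays, red the 3 genes described here and grey their neighbors. The dashed line is the median probeset at 4.78, and CDKN2A, CDKN2B-AS1, CDKN2B, DMRTA1 and ELAVL2 form a run of means below it.

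The widest differences between arrays of the bright genes lay with the low 5' actin arrays. STK11 read 10.88, 11.24 and 12.29 in the reference chambers of the 0 ppm experiments, 12.20, 10.92 and 10.78 in those of the 0.1 ppm experiments and 10.84, 11.19 and 11.55 in those of the 0.5 ppm experiments. In the exposure chambers it read 10.86, 11.18 and 11.34 at 0 ppm, 10.74, 10.67 and 11.30 at 0.1 ppm and 10.69, 10.70 and 11.14 at 0.5 ppm. The highest values, 12.20 and 12.29, are those of the low 5' actin arrays, and the groups overlap without them.

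RB1 went the other way. It read 11.41, 10.84 and 8.95 in the reference chambers of the 0 ppm experiments, 9.27, 11.57 and 11.62 in those of the 0.1 ppm experiments and 11.61, 11.09 and 10.96 in those of the 0.5 ppm experiments. Its exposure-chamber values were 11.50, 11.12 and 10.87 at 0 ppm, 11.33, 11.83 and 10.81 at 0.1 ppm and 11.56, 11.58 and 10.79 at 0.5 ppm. The values 8.95 and 9.27 belong to the low 5' actin arrays, and the other 16 arrays spanned 10.79 to 11.83.

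KEAP1 was high on the same arrays, at 11.29 and 11.16 against 9.65 to 10.56 on the other 16. NFE2L2 was low there, at 9.69 and 9.59 against 10.88 to 11.61. SMARCA2 was low as well, at 9.83 and 10.28 against 11.31 to 11.79. The RNA signals of KEAP1 and NFE2L2 were thus displaced in opposite directions on these arrays, and so were those of STK11 and RB1. SMARCA4 (7.50 and 7.33 against 6.02 to 7.21) was above all the others too, and MTAP (10.74 on both, against 10.05 to 10.70) was above them by a smaller margin. Of the 36 probesets, 6 were higher and 5 lower on both low 5' actin arrays than on all other 16, and of all probesets 14.1% were higher and 9.57% lower. Leaving these arrays out reduced the SD of SMARCA2 from 0.508 to 0.132, of RB1 from 0.777 to 0.350, of NFE2L2 from 0.538 to 0.216, of STK11 from 0.478 to 0.275 and of KEAP1 from 0.468 to 0.266, and that of MTAP only from 0.218 to 0.197. The part of RNA quality in these displacements was not tested.

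**Figure D3:**
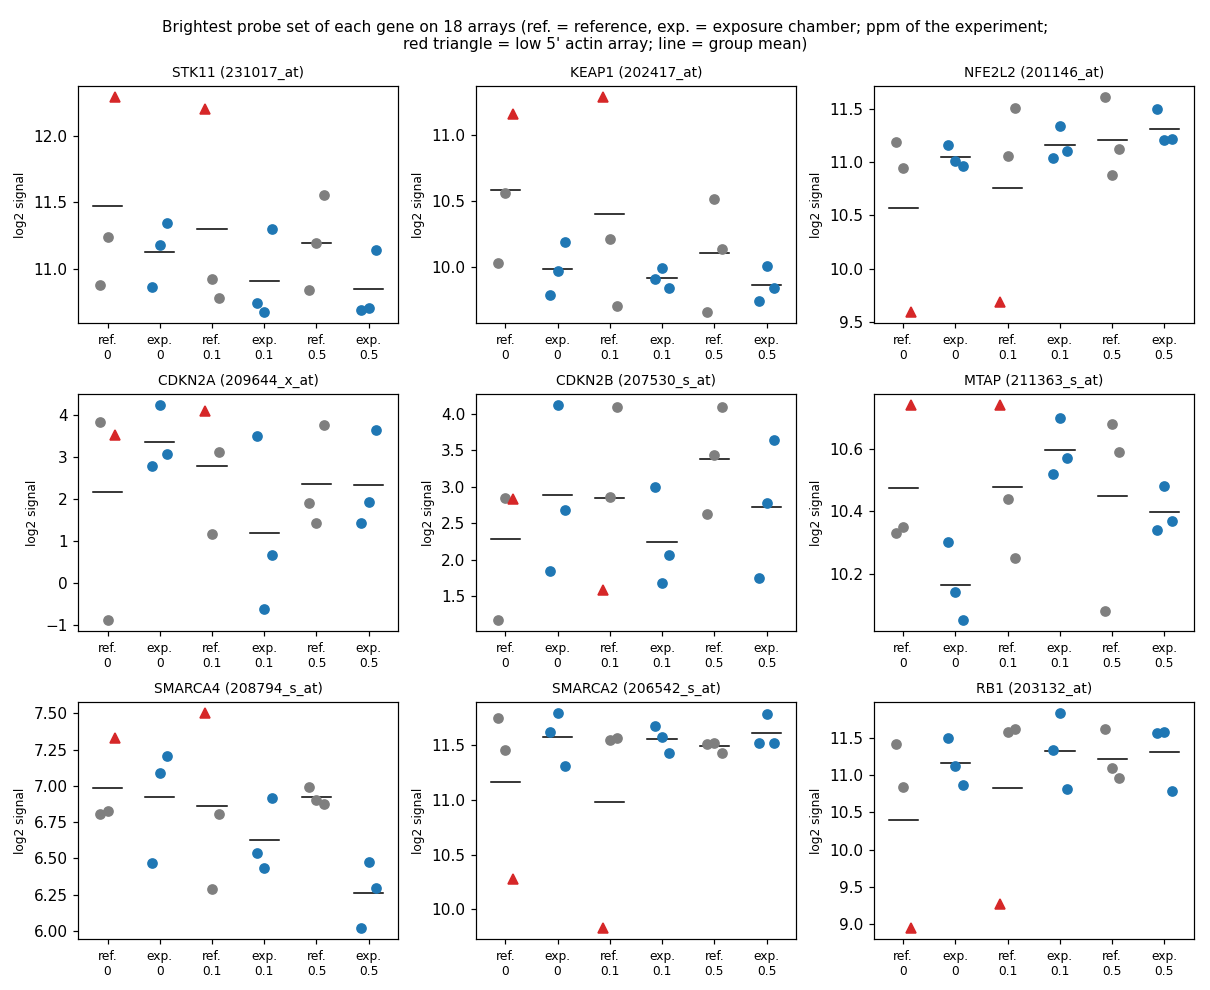
Log2 signal (vertical axes, each with its own range) of the brightest probeset of each gene on 18 arrays, by chamber and by ppm of the experiment (horizontal axis): circles are arrays, grey for reference and blue for exposure chamber, red triangles are the low 5' actin arrays and lines are group means (n = 3). The triangles stand above all circles for STK11, KEAP1, SMARCA4 and MTAP and below all circles for NFE2L2, SMARCA2 and RB1.

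Among the other 16 arrays the bright genes still varied together in part. Of the 28 relations between the 7 bright genes and the 3' minus 5' actin signal, 3 passed a Benjamini-Hochberg adjusted permutation p of 0.05 by both Pearson's r and Spearman's rho (100000 resamples, two-sided). STK11 and RB1 had r = -0.88 (permutation p = 2e-05, adjusted 0.00056) and rho = -0.80 (permutation p = 0.00026, adjusted 0.00728), with r = -0.90 after leaving out the 2 arrays farthest from the median of STK11. KEAP1 and NFE2L2 had r = -0.775 (permutation p = 0.00047, adjusted 0.00439) and rho = -0.76 (permutation p = 0.00105, adjusted 0.0098), with r = -0.73 after the same step. RB1 fell with the 3' minus 5' actin signal, at r = -0.78 (permutation p = 0.00026, adjusted 0.00364) and rho = -0.75 (permutation p = 0.00097, adjusted 0.0098), and at -0.87 without the 2 farthest arrays. STK11 and the actin measure had r = 0.64 with an adjusted permutation p of 0.0526. Chambers of 1 experiment share a day, so these p-values treat as independent what may not be. The share of other gene pairs that pass in this way is not given here, so these relations are not shown to be particular to these genes.

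**Figure D4:**
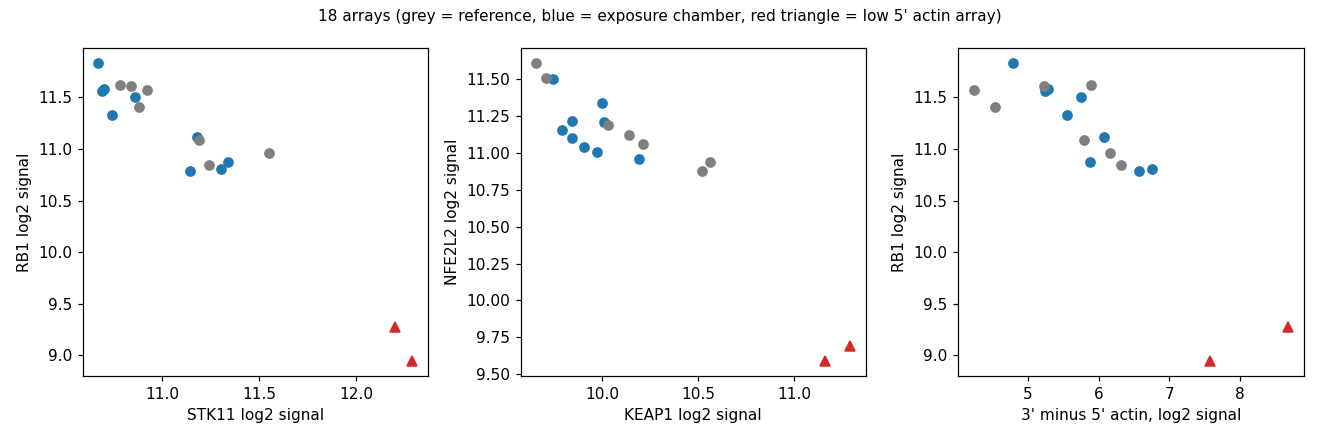
Log2 signals of RB1 against STK11 (left), NFE2L2 against KEAP1 (middle) and RB1 against the 3' minus 5' actin signal (right) on 18 arrays: grey circles are reference and blue circles exposure chambers, red triangles the low 5' actin arrays. Over the 16 circles r is -0.88, -0.775 and -0.78, and the triangles lie at the lower right of each panel.

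In each experiment the chambers can be compared directly. STK11 was lower in the exposure than in the reference chamber in 8 of 9 experiments, with a median log2 difference of -0.25 and a range of -1.46 to 0.52. Its differences in the 0 ppm experiments were -0.02, -0.06 and -0.95. KEAP1 was lower in 7 of 9 (median -0.30, -1.39 to 0.14) and SMARCA4 in 6 of 9 (median -0.34, -0.97 to 0.27). RB1 and NFE2L2 were lower in 3 of 9 each and SMARCA2 in 2 of 9, with medians of 0.26, 0.10 and 0.08. CDKN2A was lower in 7 of 9 and MTAP and CDKN2B in 6 of 9 each, with medians of -0.47, -0.20 and -0.44. The share of all probesets that were lower this often is not given here. The experiments without formaldehyde are counted here with the others, and the lowest differences of STK11 and KEAP1 are those with a low 5' actin array as the reference.

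The study used a p threshold of 0.05 without adjustment, and combined comparisons at it by a rule given further below. With 0 ppm in both chambers, limma called 1 of the 36 probesets at this threshold, against 4.84% of all probesets. It was CDKN2B 236313_at, an array feature close to the bottom of the range, and none of the brightest probesets was called. The count was 2 with the experiment as a block. RB1 had the largest difference of the bright probesets, with means of 11.17 in the exposure and 10.40 in the reference chamber, a difference of 0.77 (95% interval -0.89 to 2.43; limma, adjusted p = 0.88). Without the low 5' actin array it was 0.04. KEAP1 was at -0.60 (-1.51 to 0.31) and -0.31 without that array, and NFE2L2 at 0.47 (-0.71 to 1.64) and -0.02. Without that array CDKN2A 211156_at, at a mean log2 signal of 0.71, had a difference of 1.16 and was the member that limma called (adjusted p = 0.538), while CDKN2B 236313_at kept its difference, -3.13 against -3.14 with all arrays, and was not called on the 5 arrays left. The interval of each bright gene included 0, and with 3 arrays per group it was wide.

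At 0.1 ppm, 1 of the 36 probesets was called between the chambers, against 4.00% of all probesets. It was MTAP 211364_at, one of the dim MTAP probesets, at 2.51, 0.06 and 1.63 in the exposure chamber and 3.53, 3.20 and 3.19 in the reference chamber. These groups do not overlap, and the share of all probesets that separate in this way is not given here. The difference was -1.90 (SE 0.655; limma, adjusted p = 0.998). It was -1.24, and not called, without exposure replicate 2, which read 0.06, and ran from -2.46 to -1.24 over all arrays left out in turn, with the call kept without exposure replicate 1 or 3. With 32 added to every signal it was -0.25, still called. Of the 6 MTAP probesets, 4 were higher and 2 lower. The other lower one, the dim 216685_s_at, was at -1.77 (95% interval -3.63 to 0.08) and not called. The bright MTAP probeset, for which reading of MTAP RNA was not tested, differed by 0.12 (95% interval -0.70 to 0.94) and did not share the drop. STK11 was at -0.39 (-1.61 to 0.82), RB1 at 0.50 (-1.25 to 2.25) and SMARCA2 at 0.58 (-0.76 to 1.92). Without the low 5' actin array these were 0.06, -0.27 and 0.01. The difference of MTAP 211364_at then was -1.79, close to the -1.90 with all arrays, but on 5 arrays it was not called. SMARCA4 215714_s_at and 213719_s_at, with means of 2.53 and 2.32 over all arrays, were called there, at 2.31 and 2.09. The count was also 2 with the experiment as a block.

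At 0.5 ppm, 4 of the 36 probesets (11.1%) were called, against 3.92% of all probesets, and 3 of the 4 belong to SMARCA4. Its brightest probeset, 208794_s_at, read 6.02, 6.47 and 6.29 in the exposure chamber and 6.99, 6.91 and 6.88 in the reference chamber. The groups do not overlap, and the share of all probesets that separate in this way is not given here. The difference was -0.66 (SE 0.236, 95% interval -1.25 to -0.08; limma, adjusted p = 1). It was lower in each of the 3 experiments, with differences of -0.97, -0.43 and -0.58. The 3' minus 5' actin signal was 5.24, 5.29 and 6.57 in these exposure chambers and 5.23, 5.79 and 6.16 in the reference chambers, and the low 5' actin arrays are not among them.

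Of the 9 SMARCA4 probesets, 8 were lower and 1 higher at 0.5 ppm than in the reference chamber. Besides 208794_s_at, the dim 213719_s_at passed the threshold at -1.32 and the dim 1569073_x_at at 1.21, in the opposite direction (limma, adjusted p = 1 for both). Both dim calls ended when any of 4 of the 6 arrays was left out, with differences of -1.62 to -0.89 and 0.84 to 1.53. The 9 probesets read 1 gene and are not independent. SMARCA2, the other ATPase, did not pass in any of its 7 probesets, and its brightest had a difference of 0.12 (-0.43 to 0.66). With 1 exception, exposure replicate 2, leaving out any of the 6 arrays ended the call of 208794_s_at, with differences of -0.77 to -0.54, and so did 1 fit over all 18 arrays. The same probeset at 0.5 against 0 ppm within the exposure chamber had means of 6.26 and 6.92 and a difference of -0.66 (SE 0.293; limma, adjusted p = 1), with 9 of 9 SMARCA4 probesets lower and 0 called. This comparison shares the exposed arrays with the former. The chamber difference at 0.5 ppm less that at 0 ppm was -0.60 (95% interval -1.45 to 0.25; limma, adjusted p = 1), and -0.77 (SE 0.365) without the low 5' actin array.

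The remaining call at 0.5 ppm was CDKN2B 236313_at again. It read -3.02, -3.27 and -1.66 in the exposure chamber at 0 ppm, 1.20, 0.04 and -2.04 at 0.1 ppm and 1.92, -0.08 and -1.17 at 0.5 ppm. In the reference chambers it read 2.24, -1.28 and 0.51 in the 0 ppm experiments, 2.20, -0.74 and 0.91 in the 0.1 ppm experiments and 2.74, 2.62 and 3.09 in the 0.5 ppm experiments. All 18 values lie below the median probeset, and their SD was 2.02. It was called lower in the exposure chamber at 0 ppm (-3.14, SE 0.963) and at 0.5 ppm (-2.59, SE 0.794), and called higher in the exposure chamber at 0.1 and 0.5 ppm than at 0 ppm (2.39, SE 0.924, and 2.88, SE 0.892), with limma adjusted p-values of 0.88 or more. With 32 added to every signal before the logarithm, 3 of these 4 calls ended, and the differences were -0.09, -0.22, 0.04 and 0.07. Leaving out 1 array ended the 4 calls in 3, 2, 4 and 2 of 6 refits. The other CDKN2B probeset was called in none of the comparisons.

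Within the exposure chamber, 1 of 36 probesets was called between 0.1 and 0 ppm, against 4.47% of all, and 4 (11.1%) between 0.5 and 0 ppm, against 4.56%. Those at 0.5 ppm were CDKN2B 236313_at, NFE2L2 1567013_at (-1.57), SMARCA2 206544_x_at (0.66) and SMARCA2 212258_s_at (-1.52), with limma adjusted p-values of 0.985 or more. The 2 SMARCA2 probesets went opposite ways. With arrays left out in turn, NFE2L2 1567013_at ran from -1.82 to -1.10 and lost its call without 0 ppm replicate 3 (-1.34). SMARCA2 206544_x_at ran from 0.55 to 0.83 and kept its call only without 0 ppm replicate 1. SMARCA2 212258_s_at ran from -1.82 to -1.01, the latter without 0 ppm replicate 1, and kept its call only without 0 ppm replicate 2 or 3. The brightest probesets of these genes differed by 0.27 (NFE2L2, -0.26 to 0.80) and 0.03 (SMARCA2, -0.55 to 0.62). Bright MTAP read 10.30, 10.14 and 10.05 at 0 ppm, 10.52, 10.70 and 10.57 at 0.1 ppm and 10.34, 10.48 and 10.37 at 0.5 ppm. Both formaldehyde groups lie above the 0 ppm group, by 0.43 (-0.09 to 0.95) and 0.23 (-0.28 to 0.73), and both share it as the control. The differences were not past the threshold, and the share of all probesets whose groups lie apart like this is not given here. The 0 ppm exposure group also lay below all 3 arrays of its own reference chamber (10.33, 10.35 and 10.74), at -0.31 (-0.97 to 0.35), and at -0.17 without the low 5' actin array, which read 10.74. Against their own reference chambers, MTAP differed by 0.12 at 0.1 ppm and by -0.06 (-0.70 to 0.59) at 0.5 ppm, with overlapping groups.

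**Figure D5:**
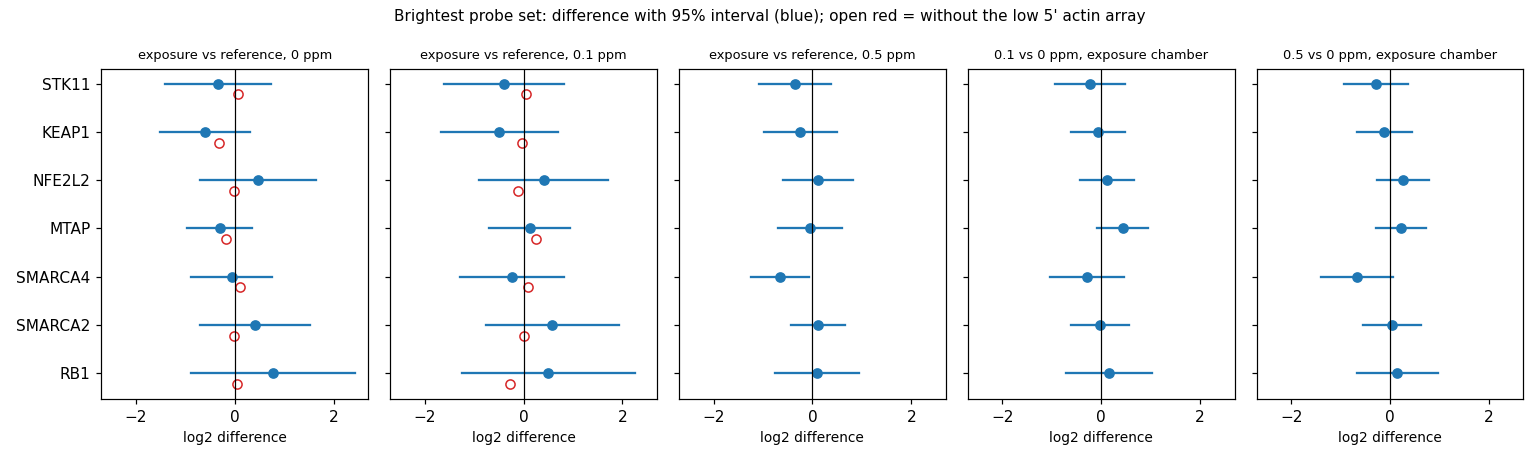
Log2 difference (horizontal axes) of the brightest probeset of the 7 genes above the median probeset (rows) in 5 comparisons of 3 arrays with 3 (panels): blue points and lines are differences with 95% intervals from limma, open red circles the difference without the low 5' actin array. Of the 35 intervals, that of SMARCA4 at 0.5 ppm against the reference chamber, -1.25 to -0.08, excludes 0, and the red circles lie nearer to 0 than the blue points for STK11, KEAP1, NFE2L2, SMARCA2 and RB1.

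The chamber differences themselves were also compared between concentrations. None of the 36 probesets was called for 0.1 against 0 ppm, where limma called 3.21% of all probesets, or for 0.5 against 0 ppm, where it called 3.69%. With the experiment as a block the counts were 1 and 2, and without the low 5' actin arrays 2 and 2. Over the 5 comparisons named before, 11 of 180 tests (6.11%) passed, against 11912 of 273375 (4.36%) over all probesets. They lay on 8 probesets of 5 genes, and 2 of the 11 were on probesets above the median signal. The 9 brightest probesets passed 1 of 45 tests. STK11, KEAP1, CDKN2A and RB1 had no call. The lowest adjusted p of any member in the 7 comparisons was 0.88, and limma passed 0 of all probesets at an adjusted p of 0.05. The median difference of the 36 was 0.04, 0.19 and -0.22 between chambers at 0, 0.1 and 0.5 ppm and -0.21 and -0.23 at 0.1 and 0.5 against 0 ppm, and that of all probesets -0.071, -0.073, -0.042, -0.034 and -0.035.

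The pathways around these genes were read with 1 brightest probeset per gene. Taking the brightest favors a place above the median of all probesets. The share of all genes above that median is not given here, so counts above it are descriptions. Of all genes, limma called 1.19%, 1.04%, 1.28%, 1.40% and 1.57% higher and 2.50%, 1.95%, 1.77%, 2.15% and 2.03% lower in the 5 comparisons, in the order used above. Of 24 measured NRF2 targets, 23 lay above the median probeset and 20 above the 95th percentile, where 9.59% of all genes lie. The gene lists were chosen with earlier results of these data known, so such shares are descriptions and not a test. AKR1B10, an aldo-keto reductase, and NQO1, a quinone reductase, had mean log2 signals of 14.6 and 14.5, and SLC7A11, the cystine transporter, one of 13.6. HMOX1, the heme oxygenase, was at 8.19. None of the 24 was called in any of the 5 comparisons, and their median differences ran from -0.06 to 0.11. None of 8 measured partners of KEAP1 and NRF2 was called, with CUL3 and RBX1, the ubiquitin ligase that KEAP1 serves, at 11.9 and 13.2.

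All 20 further SWI/SNF subunits lay above the median probeset, from BCL7C at 6.11 to SMARCE1 at 12.7, and 0 were called. For LKB1, 19 of 20 measured partners and downstream kinases lay above it. MARK2 and BRSK1, kinases that LKB1 activates, were called lower at 0.1 ppm than in the reference chamber, with differences of -1.50 and -1.22, and of -1.48 and -1.05, still called, without the low 5' actin array. MARK1 was called on those 5 arrays as well (-0.93, against -0.57 with all 6). The mean log2 signals of MARK2, BRSK1 and MARK1 were 4.66, 5.57 and 5, with MARK2 below the median probeset and the others not far above it. BRSK1 was called higher at 0.5 ppm (0.78) and MARK1, another such kinase, at 0.5 against 0 ppm (1.24). The limma adjusted p-values of these were 0.998 or more. Of 14 coactivators and targets of CREB, which LKB1 restrains through its kinases, CRTC2 was called once, at -0.79 between the chambers at 0 ppm, and at -0.64 and not called without the low 5' actin array. PDE4D, a target that breaks down cAMP, was at 12.5. CPS1 and INSL4, which are high in LKB1-deficient lung tumors, were at 14.1 and 12.6 without a call. Others of the 14 were lower, with NR4A1 at 6.37, CRTC1 at 5.23 and PCK1 at 3.48, the last below the median probeset. In all, 13 of the 14 lay above it.

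None of 24 measured genes of the RB1 and cyclin-dependent kinase pathway was called. CDK4, the kinase that INK4a and INK4b inhibit, was at 11.5, CDK6 at 11.2, and their partner cyclin genes CCND1 at 11.2 and CCND2 at 1.92. The inhibitor genes CDKN1B and CDKN1A were at 12.7 and 10.2, and CDKN2D at 2.63. MDM2 and MDM4, on the ARF side, were at 12.9 and 11.4 and were not called. Of 13 genes of methionine salvage and of PRMT5, the methyltransferase sensitive to the substrate of MTAP, 13 lay above the median and 0 were called, with PRMT5 at 12.4 and MAT2A at 13.6. Among the 15 measured neighbors on chromosome 9, ELAVL2 was called at 0 ppm between chambers (1.06, and 0.74 and not called without the low 5' actin array, where IFNW1 was, at 2.13). Further calls were IFNA1 at 0.5 ppm (-2.68), and IFNA1 (-2.25), IFNB1 (1.37) and CDKN2B-AS1 (2.63) at 0.5 against 0 ppm, all on probesets below the median. In the same comparisons KRT19 was called higher at 0.1 and 0.5 than at 0 ppm (1.17 and 1.05), PTPRC higher at 0.5 ppm than in the reference chamber (2.63), and COL3A1 lower (-1.53) and LUM higher (3.09) at 0.1 ppm. PTPRC, COL3A1 and LUM lay below the median probeset, at mean log2 signals of 1.77, 3.23 and 1.6. Without the low 5' actin array COL3A1 and LUM were at -1.67 and 4.27, both still called. Their part in the members' differences was not tested.

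Genes whose signal ran most like that of each bright member over the 18 arrays were sought among 22895 probesets above the median signal, 3 for each. For STK11 they were ZSWIM7, TMEM219 and PNKD (r = 0.97 each), for KEAP1 PQBP1, NPRL2 and FIBP (0.98 each), for NFE2L2 STAM2, MYNN and RRM2B (0.985 to 0.988), and for RB1 SEMA3C, SMAD4 and CYB5B (0.984 to 0.988). Over the 16 arrays other than the low 5' actin arrays these stayed at 0.89 to 0.95. For SMARCA2 they were NPTN, ARPC5 and WDR44 (0.977 to 0.985), which dropped to 0.62 to 0.73 over the 16. SMARCA4 was followed by CEACAM1, IP6K1 and STARD10 (0.88, 0.86 and 0.86) and MTAP by KLHL26, ZBED3 and OGFOD1 (0.89, 0.88 and 0.845). These are the highest of many correlations over the same arrays and carry no test.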

How the data were processed

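The authors amplified RNA of 18 samples with a 3' amplification kit and hybridized it to Affymetrix arrays. They deposited 1 table of MAS5 signal intensities on a linear scale. Each array was scaled to a trimmed mean of 500 with 2% left out at each end. Depth does not apply; the number of arrays limits the precision. Groups came from the sample titles, and replicates are cultures of separate experiments. Gene names came from the platform annotation, and all 9 symbols matched RefSeq. Log2 signals of all 54675 probesets were compared with limma 3.58.1 (lmFit and eBayes) in R 4.3.3, each comparison with its own arrays alone, at the study's unadjusted p under 0.05, with Benjamini-Hochberg adjusted p-values over all probesets. The code was tested on simulated data. Correlations used numpy in Python, with 100000 resamples.

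The members and gene lists were chosen with earlier results of these data known. Every member probeset was counted, and the brightest of each gene (highest mean over 18 arrays) and those past the threshold are given with values. Replicate numbers pair the chambers of 1 experiment, since the labels give both the same run. The deviations of the paired arrays from their group means correlated at -0.02 to 0.12 over all probesets in 9 pairs, and at 0.0086 to 0.49 above the median signal. Between concentrations, equal numbers mark different experiments. Alternatives were quantile normalization, 32 added before the logarithm, probesets above the median only, 1 fit over all 18 arrays, eBayes with trend and robust, the replicate block, the low 5' actin arrays left out, and each array left out. Probe sequences, genome positions and list genes without a single-gene probeset are not reported here.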

Additional observations from a re-analysis of the deposited data

How the results depend on the processing

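Counts of called probesets among the 36 were small and moved with most settings. With 32 added before log2 they were 0 between the chambers at 0 ppm and 2 at 0.5 ppm, and 1 for the chamber difference at 0.5 ppm less that at 0 ppm. With probesets above the median only they were 0, 0 and 1 between the chambers at 0, 0.1 and 0.5 ppm. In 1 fit over all 18 arrays they were 2, 2 and 1, and 1 for the chamber difference at 0.1 ppm. With trend and robust they were 0 and 2 between the chambers at 0.1 and 0.5 ppm and 2 for 0.1 against 0 ppm. Quantile normalization gave 0 for 0.1 against 0 ppm and 1 for the chamber difference at 0.5 ppm. With the replicate block they were 2 and 2 between the chambers at 0 and 0.1 ppm, and 1 and 2 for the chamber differences at 0.1 and 0.5 ppm, and no other count moved by over 1.5 times. Without the low 5' actin arrays they were 2 between the chambers at 0.1 ppm, and 2 and 2 for the chamber differences.

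Leaving out each array in turn gave 0 to 2 calls between the chambers at 0 ppm (0 without exposure replicate 1, 2 without reference replicate 1), 0 to 3 at 0.1 ppm (0 without exposure replicate 2 or reference replicate 3, 2 without reference replicate 1 or exposure replicate 3, 3 without exposure replicate 1) and 1 to 3 at 0.5 ppm (1 without reference replicate 3, 2 without exposure replicate 1 or reference replicate 2). For 0.1 against 0 ppm it gave 1 to 3 (3 without 0.1 ppm replicate 3), for 0.5 against 0 ppm 2 to 5 (2 without 0 ppm replicate 3 or 0.5 ppm replicate 2), and for both chamber differences 0 to 2. Where an array was left out, its group's spread was pooled with that of the other group. No called value changed its direction under any of these settings. Of the 11 called differences, 10 stayed past the threshold with quantile normalization, 8 with the block and 6 with trend and robust. With 32 added and in 1 fit over all arrays, 5 each stayed, and leaving out 1 array ended the call in 38 of 66 refits. For 0.1 or 0.5 against 0 ppm the block joined arrays of different experiments, so a call kept there says nothing about pairing. The causes were not tested.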
